A study of Mus musculus with 5 samples.

Results

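The mMO probes are a class of long oligonucleotides printed on the MEEBO mouse exonic array, a glass microarray on which each spot holds 1 designed probe. The class comprised every spot whose identifier starts with mMO, and a probe counted as a member when the scanner software had flagged its spot as found (flag 0) on at least 2 of the 5 arrays. This gave 351 members of 766 printed mMO probes (45.8%), beside 19121 of all 35078 gene probes (54.5%). The rule used whether a spot was found, on arrays of either genotype, and set no level of brightness. Brighter spots are found more often, so a high level in 1 genotype could admit a probe. The mean log2 intensity had a median of 6.18 over mMO probes found on 0 arrays and 9.75 over those found on 5. No source used here says what the letters of the class stand for, and the probes were described by the names the array files give them.

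The arrays carried RNA of colon without tumours from mice on a C57Bl6 background that were 10 weeks old at the start, had been treated in both genotypes with 7.4 mg/kg of azoxymethane (AOM), a carcinogen, followed by dextran sulfate sodium (DSS) in 2 cycles, and were sampled at day 56. The villin-TLR4 group (2 samples, replicate 1 female and replicate 2 male) received 1.5% DSS, and the WT littermate group (3 samples, all female) received 3% DSS. Genotype and DSS concentration therefore cannot be told apart. The labels do not say that each WT littermate sample came from its own mouse, so any p-value measures only the spread between these samples.

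TLR4 is the receptor through which cells sense bacterial lipopolysaccharide, and the villin promoter directs transgenes to the epithelium of the intestine. AOM with DSS is a widely used model of cancer arising in an inflamed colon. DSS strips the epithelium, and the injured mucosa fills with immune cells during repair, among them plasma cells, which live in the lamina propria and secrete antibody into the gut. A tissue sample mixes epithelium, muscle and these immune cells, and in such a sample fewer cells of a type and less RNA per cell cannot be told apart.

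The deposited Name column split the class in 3. A GenBank record, which names a deposited sequence and not a gene, stood beside 374 mMO probes. A RefSeq transcript stood beside 90, and 302 had no name at all. None of the GenBank records could be tied to a gene symbol with the annotation used here, so these probes are given by their record and no function is assigned to them. Of the 374 GenBank-named probes, 372 had identifiers from mMO036097 to mMO036479, a range in which every printed mMO probe was GenBank-named. The groups by name were formed with the values in view.

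The printed places followed the names. All 374 GenBank-named probes lay in the last block rows of the array, 145 in row 28 and 229 in row 29, while all 90 RefSeq-named probes and 301 of the unnamed probes lay in row 28. Each GenBank-named member had a record of its own, 222 records in all. Among the names of all printed mMO probes, members or not, 9 joined a pair of records. None of the GenBank records of the class appeared on a probe of another class. Some records had several probes, and the 5 such records (AE000663 with 7 probes, AE000664 with 8, AF259071 with 8, AF037352 with 3 and AF259073 with 2) contributed no member.

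Detection differed between the name groups. On at least 2 arrays, 222 of the 374 GenBank-named probes (59.4%), 62 of the 90 RefSeq-named probes (68.9%) and 67 of the 302 unnamed probes (22.2%) were found. The class was mostly found everywhere or nowhere: 367 probes were found on no array and 247 on all 5, with 48, 22, 27 and 55 on 1, 2, 3 and 4 arrays. The mean log2 intensity of the 22 probes just inside the rule ran from 6.36 to 7.14 with a median of 6.70, and that of the 48 just outside it from 6.19 to 6.84 with a median of 6.49. Detection thus thinned out over a narrow range of brightness near background.

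Array by array, the share of mMO spots found was 42.7% and 44.1% in villin-TLR4 and 34.7%, 44.1% and 46.9% in WT littermates. The other gene probes gave 50.2%, 46.8%, 38.1%, 55.0% and 55.8% in the same order. By the flag of the scanner software, the class was lower on 5 of 5 arrays, by a mean of 6.68 percentage points (SD 3.55, n = 5 arrays). The mean difference, coded as class minus other probes, was -6.68, with an exact sign-flip permutation p of 0.0625, two-sided, which is the smallest that 5 arrays allow. By name group, the mean difference was 6.0 points for GenBank-named, 10.8 points for RefSeq-named and -27.6 points for unnamed probes, each with the same sign on all 5 arrays and the same exact permutation p of 0.0625.

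The array of WT littermate replicate 1 was dim. It had 13352 gene probes found against 16380 to 19509 on the others, 1240 bad spots against at most 4, and an upper-quartile signal over background of 116 intensity units against 256 to 481. Of its bad spots 33 were mMO spots, and 10 members lacked a value there. Its neutrophil markers (5 of 6 listed genes measured) summed to 42088 intensity units against 787 to 2204 elsewhere, while all 8 markers of colon epithelium were found on the arrays. The 2 measured Tlr4 probes of other classes gave differences of 0.01 and -0.07 on the log2 scale, and no source used here says where they lie relative to the transgene.

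Levels of the members, as background-corrected, quantile-normalised log2 intensity, covered nearly the whole range of the scanner, with means over the 5 arrays from 6.36 to 15.93 and a median of 8.93. The median over all probes tested was 8.32. The brightest members carried no name. Of the 67 unnamed members 18 had a mean above 15, against 1 of the 222 GenBank-named members and 0 of the 62 RefSeq-named members. Brightness depends on the probe as well as on its target, so these levels do not rank amounts of RNA.

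The 6 brightest members were mMO035747, mMO035986, mMO035999, mMO036010, mMO035903 and mMO035938, all unnamed, with mean levels between 15.89 and 15.93. The raw signal of mMO035747 was at the scanner's ceiling of 65535 on all 5 arrays. Its normalised level lay between 15.85 and the top of the scale on every array, and with every array at the ceiling its difference carries no information on the genotypes. Of the unnamed members 14 touched the ceiling on at least 1 array, and 1 GenBank-named member did.

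The GenBank-named member at the ceiling was mMO036097, named by record V00807, at the first position of the block. Its level was 15.96 and 15.93 in villin-TLR4 and 15.27, 14.92 and 15.74 in WT littermates. Both villin-TLR4 arrays lay above all WT littermate arrays, with a difference of 0.63 ± 0.30 (SE) and a limma adjusted p of 0.883. Saturation bounds how far such a difference can open.

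At the dim end stood mMO035398 (RefSeq record NM_144513, with no symbol in the gene table), at 6.60 and 6.01 in villin-TLR4 and 6.09, 6.68 and 6.43 in WT littermates. The unnamed mMO035836 read 6.22 and 6.20 against 6.32, 6.61 and 6.56. The GenBank-named mMO036438 (AJ235958) read 6.46 and 6.90 against 6.63, 6.39 and 6.25. Each was found on 2 arrays only, and their levels lie within the range of the probes that missed the rule.

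The comparison of villin-TLR4 with WT littermates asks how tumour-free colon differs between the genotypes. In limma, fitted over all 19121 probes, 0 probes had an adjusted p under 0.05 (0%), so no member passed the test, the lowest adjusted value being 0.869. At an unadjusted limma p under 0.05, 888 probes passed (4.64%), 492 with the higher level in villin-TLR4 (2.57%) and 396 with the lower (2.07%). Of the 351 members 99 did so (28.2%), 97 higher in villin-TLR4 and 2 lower. Nearly all were GenBank-named, 96 of 222 (43.2%), all higher in villin-TLR4, beside 1 RefSeq-named and 2 unnamed members.

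The size of the differences divided the class in the same way. Over GenBank-named members the median difference, villin-TLR4 minus WT littermate, was 1.20 on the log2 scale, or 2.29-fold, with quartiles of 0.51 and 1.67 and a range from -1.396 to 4.15. The difference was above 0 in 205 of 222 (92.3%), against 51.7% of all probes. Over all 374 GenBank-named probes, the undetected ones included, the median was 0.41, and at least 2 of the 222 members had passed the rule through the villin-TLR4 arrays alone. For RefSeq-named members the median difference was -0.03 and for unnamed members -0.04, against 0.02 over all 19121 probes. A difference above 1 was seen in 132 GenBank-named members, 1 RefSeq-named member and 0 unnamed members, where 374 of all probes had one (1.96%). A difference below -1 was seen in 4 GenBank-named members and in no other member, where 238 of all probes had one (1.24%).

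The arrays of the genotypes did not overlap, with villin-TLR4 above, for 112 of 351 members (31.9%) against 13.0% of all probes. GenBank-named members made up 101 of these, which is 45.5% of their 222. RefSeq-named members gave 8 of 62, close to the share over all probes, and unnamed members 3 of 67. With villin-TLR4 below every WT littermate array there were 1 GenBank-named, 11 RefSeq-named and 14 unnamed members, beside 12.8% of all probes.

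Within each array, the median level of the 222 GenBank-named members was 9.28 and 10.49 in villin-TLR4 replicates 1 and 2. It was 8.73, 8.24 and 9.13 in WT littermate replicates 1, 2 and 3. The genotypes did not overlap in this median, but villin-TLR4 replicate 1 and WT littermate replicate 3 were close. RefSeq-named members gave medians of 8.29 and 8.35 against 8.09, 8.34 and 8.29, with the villin-TLR4 values inside or next to those of the WT littermates.

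Pairs of arrays showed the same spread from the side of the differences. The median over GenBank-named members of villin-TLR4 replicate 1 minus WT littermate was 0.87, 1.01 and 0.25 for WT littermate replicates 1, 2 and 3. For villin-TLR4 replicate 2 it was 1.70, 2.06 and 0.97. All 6 pairs were positive, yet pairs within a genotype also differed: villin-TLR4 replicate 2 stood above replicate 1 by a median of 0.93, WT littermate replicate 3 above replicates 1 and 2 by 0.73 and 0.85, and WT littermate replicate 1 above replicate 2 by 0.37. These medians within a genotype, 0.37 to 0.93, compare with 1.20 between the genotypes.

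Individual arrays weighed heavily. Villin-TLR4 replicate 2 was the only male, so the part of that array and that of sex cannot be told apart. Of the 222 GenBank-named members 138 were highest on villin-TLR4 replicate 2, 47 on replicate 1, and 10, 6 and 21 on WT littermate replicates 1, 2 and 3, while 109 were lowest on WT littermate replicate 2. Without villin-TLR4 replicate 2 the median difference was 0.68 and 54 GenBank-named members had an unadjusted limma p under 0.05, beside 1.49% of all probes in that fit. Without villin-TLR4 replicate 1 the median was 1.51, and 175 members had the remaining villin-TLR4 array above all WT littermates, beside 22.2% of all probes. Without the dim array of WT littermate replicate 1 the median was 1.12.

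Scan day touched this comparison too. Villin-TLR4 replicate 1 was scanned alone on the first day, WT littermate replicates 1 and 3 on the next, and villin-TLR4 replicate 2 with WT littermate replicate 2 on the last. On the shared day the median difference of GenBank-named members was 2.06, with 212 of 222 above 0, against -0.09 for RefSeq-named and -0.02 for unnamed members. Over all probes 8968 of 19120 were above 0 on that day. With scan day as a block limma called 68 of 19121 probes at an adjusted p under 0.05 (0.356%), of which 27 were members, all GenBank-named and all higher in villin-TLR4. The members called included mMO036270 (a difference of 7.36), mMO036455 (4.52), mMO036168 (4.34), mMO036274 (4.20), mMO036222 (4.0959) and mMO036347 (3.45), with limma adjusted p from 3.3e-08 to 0.027. That fit takes the genotype difference from the shared day alone, a male against a female. Its residual spread comes from WT littermate replicates 1 and 3. Probe mMO036168 had no value on WT littermate replicate 1, so it had no residual spread of its own there. Its p in that fit rests on the spread of the other probes.

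Both print rows gave like values. GenBank-named members had a median difference of 1.16 in row 28 (87 members) and 1.22 in row 29 (135 members). The 430 other gene probes found in the same rows that are not of the class had a median of -0.03. Among GenBank-named members found on all 5 arrays (158), the median difference was 1.35.

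Of the 8 GenBank-named members with the smallest unadjusted p, chosen by that p and so with a small spread by construction, 6 are given here and X02467 with the largest differences. Record M17950 (mMO036451) read 12.51 and 12.54 in villin-TLR4 and 10.26, 9.88 and 10.77 in WT littermates. Both villin-TLR4 arrays were high and almost equal. The difference was 2.22 ± 0.31 (SE), a 4.66-fold higher level, with a limma adjusted p of 0.869.

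Probe mMO036261 (L33961) showed the same order, at 12.15 and 12.11 against 9.50, 9.56 and 10.40. Its difference was 2.31 ± 0.33 (SE), with a limma adjusted p of 0.869. The WT littermate arrays were low and separate from villin-TLR4, with replicate 3 the highest of them. For mMO036187 (M22439) the levels were 12.50 and 12.26 against 9.82, 10.15 and 10.72, and the difference was 2.14 ± 0.32 (SE). For mMO036355 (K00607) they were 10.11 and 10.56 against 8.78, 8.23 and 8.32, and the difference was 1.89 ± 0.28 (SE). In both, the gap between the genotypes exceeded the range within either, and the limma adjusted p was 0.869.

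A further example was mMO036307 (K00603), at 10.49 on both villin-TLR4 arrays and at 8.18, 8.20 and 9.08 in WT littermates, a difference of 2.00 ± 0.34 (SE). Probe mMO036478 (AF304556) read 10.46 and 10.51 against 8.97, 8.76 and 9.30, a difference of 1.47 ± 0.25 (SE). The genotypes were again apart in both, with a limma adjusted p of 0.883.

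The largest differences belonged to probes on which the villin-TLR4 arrays disagreed with each other. Probe mMO036270 (AJ231206) read 8.83 and 13.63 in villin-TLR4 and 8.58, 6.27 and 6.38 in WT littermates, and was found on 3 arrays. In WT littermates it was found on 1 array, and the levels of 6.27 and 6.38 are not above background, so the size of the difference depends on the background correction. It was 4.15 ± 1.403 (SE), with a limma adjusted p of 0.883, and 5.80 with plain subtraction. Villin-TLR4 replicate 2 was far above the rest, while replicate 1 lay just above WT littermate replicate 1. Without replicate 2 the difference was 1.77.

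Record J00479 (mMO036222) had levels of 12.07 and 14.61 in villin-TLR4 and 10.59, 10.52 and 9.88 in WT littermates, a difference of 3.01 ± 0.71 (SE). Record X03571 (mMO036455) had 9.84 and 12.82 against 7.80, 8.30 and 8.87, a difference of 3.01 ± 0.83 (SE). On each of them villin-TLR4 replicate 2 was more than 2 log2 units above replicate 1, and both stood over the WT littermates. The limma adjusted p of each was 0.883. Without villin-TLR4 replicate 2 the differences were 1.73 and 1.51.

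Record X03572 (mMO036168) had no value on WT littermate replicate 1 and was fitted on 4 arrays, with 10.09 and 13.03 in villin-TLR4 and 8.69 and 8.91 in WT littermates. Its difference was 2.76 ± 0.93 (SE), and 1.28 and 4.27 without villin-TLR4 replicates 2 and 1. The joined name D00080$M15566 (mMO036347) read 12.80 and 13.40 against 9.73, 9.95 and 11.80, a difference of 2.60 ± 0.63 (SE), and 1.66 with array weights. Record X02467 (mMO036210) was the exception in this set, highest on villin-TLR4 replicate 1, at 12.41 and 11.73 against 9.30, 9.13 and 10.11. Its difference was 2.55 ± 0.38 (SE), and the limma adjusted p of these members lay between 0.869 and 0.883.

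Many GenBank-named members stood out on a single array. Among the 218 measured on all 5 arrays, 20 had an array more than 2 log2 units above every other (9.17%), against 0.669% of all probes measured on every array. Of the 20, 15 had villin-TLR4 replicate 2 on top, 2 villin-TLR4 replicate 1 and 3 WT littermate replicate 3. At a step of more than 1 log2 unit there were 74 (33.9%), against 5.69% of all probes. The RefSeq-named and unnamed members that did so at that step, 5 and 6 of them, all had WT littermate replicate 1 on top, as did 847 of the 1054 such probes over all classes.

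The probes of this kind differed in which mouse sample carried the signal. Record J00585 (mMO036217) read 8.64 and 13.13 in villin-TLR4 and 8.90, 8.93 and 8.995 in WT littermates, high on villin-TLR4 replicate 2 only. Record X16955 (mMO036242) read 13.30 and 10.10 against 11.01, 8.26 and 8.69, highest on villin-TLR4 replicate 1, without which its difference was 0.77 in place of 2.39. Record X05555 (mMO036314) read 7.87 and 8.93 against 8.10, 7.44 and 12.23, high on WT littermate replicate 3 only. The groups overlapped in all 3.

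Record AJ231269 (mMO036274) turned on 1 array. It read 8.03 and 14.34 in villin-TLR4 and 10.77, 10.14 and 9.99 in WT littermates, so that the villin-TLR4 arrays were the lowest and the highest of the 5. The difference was 0.89 ± 1.63 (SE), with a limma adjusted p of 0.920, -2.25 without villin-TLR4 replicate 2 and 4.20 with scan day as a block, where it was called. With mMO036270, mMO036242, mMO036168 and mMO036455 it had one of the 5 largest SDs over the arrays among members.

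The 4 GenBank-named members with a difference below -1 had their highest level on the same WT littermate array. Record L36249 (mMO036098) read 6.78 and 8.44 in villin-TLR4 and 8.66, 7.07 and 11.29 in WT littermates, a difference of -1.396 ± 1.18 (SE). Record M24937 (mMO036338) read 7.56 and 9.93 against 9.74, 8.19 and 12.05, a difference of -1.24 ± 1.17 (SE). WT littermate replicate 3 was the highest of the 5 arrays and the others overlapped. AJ235968 (mMO036390) differed by -1.17 and J00453 (mMO036346) by -1.07, with the limma adjusted p of the 4 between 0.883 and 0.886. On that array the markers of exocrine pancreas (5 of 7 listed genes measured) summed to 49659 intensity units against 608 to 5337 on the others, and their part in these values was not tested.

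The prefixes of the records sorted the members further, as a description made after the values were seen. Of the 68 members with AJ records 54 were highest on villin-TLR4 replicate 2 and 2 on replicate 1. Of the 36 members with AF records 18 were highest on replicate 2 and 15 on replicate 1. The 20 members with J records divided equally, 9 and 9, between the villin-TLR4 replicates. The median differences of these sets were 1.12, 1.20 and 1.53, and none of the 15 probes with AE records was a member.

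Variation over the arrays differed between the name groups. The SD over the 5 arrays had a median of 1.04 for GenBank-named members, 0.31 for RefSeq-named, 0.23 for unnamed and 0.33 for all probes. Across probes, which are not independent replicates and share arrays and print rows, Pearson's r between pairs of arrays ran from 0.705 to 0.814 over GenBank-named members. It ran from 0.866 to 0.985 over RefSeq-named members, from 0.977 to 0.998 over unnamed members and from 0.886 to 0.973 over all probes. The levels of the GenBank-named probes relative to each other thus varied more from array to array than those of the rest of the class. As a measure of co-variation, 1 shared profile over the arrays (the first principal component) held 54.7% of the variation of GenBank-named members. It held 78.1% for RefSeq-named members, 81.4% for unnamed members and 58.0% for all probes. In pairs of WT littermate arrays with the dim replicate 1, 11 and 13 RefSeq-named members differed by more than 1 log2 unit. In each other pair within a genotype 1 did. For unnamed members these counts were 11 and 11, and 0 in the other pairs. The part of that array in the shared profile was not tested.

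Of the 4 listed markers of B cells and plasma cells 3 were measured, and Ms4a1, which encodes the B cell antigen CD20, was not found. Mzb1, an endoplasmic reticulum protein of antibody-secreting cells, read 10.63 and 11.53 in villin-TLR4 and 10.11, 8.76 and 9.77 in WT littermates, a difference of 1.53 ± 0.47 (SE). Jchain, which joins the subunits of polymeric antibody, read 13.12 and 13.00 against 12.85, 11.57 and 12.74, a difference of 0.67 ± 0.42 (SE). Both were higher on each villin-TLR4 array than on any WT littermate array, and both had their lowest level on WT littermate replicate 2.

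Cd79a, a signalling subunit of the B cell receptor, went the other way, at 7.79 and 8.91 against 8.14, 8.93 and 9.19, a difference of -0.41 ± 0.45 (SE). The limma adjusted p of these markers was 0.883 to 0.893. The summed intensity of the list was 10694 and 11642 in villin-TLR4 and 8753, 3958 and 8316 in WT littermates. The part of these cells in the levels of the GenBank-named members was not tested.

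The RefSeq-named members could be named. Of the 90 probes 84 matched 1 symbol, 56 symbols in all, and 60 of the 62 members carried 44 symbols. Their genes have unrelated roles, from Ncstn, a subunit of gamma-secretase, to Tpr, a component of the nuclear pore. Their differences ran from -0.85 to 1.09.

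The largest positive difference was that of Nr1d1, a nuclear receptor of the circadian clock also called Rev-erb alpha. Its mMO probe (mMO035493) read 9.01 and 9.91 in villin-TLR4 and 8.19, 8.37 and 8.56 in WT littermates, a difference of 1.09 ± 0.33 (SE) with a limma adjusted p of 0.883. The genotypes did not overlap. A probe of another class for the gene gave 1.38 and another gave 0.14.

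The lowest difference was that of a probe of Nme7, a member of the nucleoside diphosphate kinase family found at centrosomes. The probe mMO035374 read 7.90 and 7.81 in villin-TLR4 and 10.08, 7.94 and 8.11 in WT littermates, a difference of -0.85 ± 0.64 (SE). The other mMO probe of Nme7, mMO035471, read 14.63 and 15.05 against 12.56, 15.08 and 15.06, a difference of 0.61 ± 0.77 (SE). These probes of 1 gene went opposite ways, and on both it was WT littermate replicate 1 that stood apart. Without that array the differences were -0.18 and -0.20, and 3 Nme7 probes of other classes gave 0.82, -0.04 and -0.02.

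The members for Tsr3 and Mea1 also had villin-TLR4 below every WT littermate array. Tsr3, which modifies ribosomal RNA, read 9.73 and 9.71 against 10.85, 10.23 and 10.13 on mMO035809, a difference of -0.69 ± 0.29 (SE). Without WT littermate replicate 1 it was -0.45. Its second mMO probe gave 0.25 and its probe of another class -0.56. Mea1, a gene first described in testis, read 11.21 and 11.17 against 12.75, 11.36 and 11.26 on mMO035517, a difference of -0.60 ± 0.47 (SE), and -0.12 without WT littermate replicate 1. Its other probes gave -0.05 and -0.37, and the limma adjusted p of both members was 0.883.

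The 10 brightest members with a symbol were the Nme7 probe, Mea1, Fam104a and a further 7 genes. Rad9a, part of the DNA damage checkpoint clamp, differed by -0.06 ± 0.25 (SE), and Lrrc59, a membrane protein of the endoplasmic reticulum, by -0.38 ± 0.28 (SE). Arg2, the mitochondrial arginase, differed by -0.12 ± 0.26 (SE) on the 4 arrays that measured it, and Cpt2, which acts in fatty acid oxidation in mitochondria, by -0.20 ± 0.32 (SE). Ssb, the La RNA-binding protein, gave -0.11 ± 0.34 (SE) and Mlx, a transcription factor of glucose sensing, -0.01 ± 0.27 (SE). Cdc42se1, a small effector of the GTPase Cdc42, gave 0.21 ± 0.28 (SE). Each of these 7 differences was smaller than the range over the WT littermate arrays, and without single arrays they lay between -0.56 and 0.42.

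Fam104a, on mMO035638, read 11.53 and 11.48 in villin-TLR4 and 10.11, 11.17 and 11.21 in WT littermates, a difference of 0.68 ± 0.38 (SE). The arrays of the genotypes did not overlap, and WT littermate replicate 1 was the lowest, without which the difference was 0.30. A second mMO probe of the gene differed by 0.06 and a probe of another class by 0.17.

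Probes of the same gene often did not share detection. Of the 26 symbols with 2 or more mMO probes, all probes were members for 14, some for 8 and none for 4. In Adgra2, Aup1, Bccip, Eif3j1, Gabpa, Pkd2l2 and Ssb 1 probe was found on all 5 arrays and the other on 0. Polr2b, which encodes a core subunit of RNA polymerase II, had both probes found on 0 arrays, as had Smad1, Gabpb1 and Ubqln2.

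Differences were set beside those of other probes of the gene. For the 58 members with a found probe of another class, 81 pairs had a median gap of 0.21 on the log2 scale and a largest gap of 1.67. The gap exceeded 0.5 in 15 pairs and 1 in 1 pair, and 23 pairs differed in sign. Pairs of mMO probes of a gene (18) had a median gap of 0.38 and a largest gap of 1.46. The differences themselves were small, with quartiles of -0.28 and 0.20 over RefSeq-named members, so a small gap says little about agreement.

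Of the unnamed members without overlap mMO035795 had the lowest difference. It read 13.00 and 13.00 in villin-TLR4 and 14.35, 13.48 and 13.84 in WT littermates, a difference of -0.89 ± 0.31 (SE). The probe mMO036055 read 9.75 and 9.63 against 10.96, 10.13 and 10.05, a difference of -0.69 ± 0.33 (SE), and -0.39 without WT littermate replicate 1. The probe mMO035932 read 7.74 and 7.64 against 8.25, 8.47 and 8.37, a difference of -0.67 ± 0.22 (SE), and -0.10 with the foreground mean in place of the median. In these probes villin-TLR4 lay below every WT littermate array, with a limma adjusted p of 0.883. In the first pair WT littermate replicate 1 was the highest array. It was so for 24 of the 67 unnamed members (35.8%), near the share of 30.7% over all probes.

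Some members were found in 1 genotype only, among them the dim mMO035836, found on 0 villin-TLR4 and 2 WT littermate arrays. The probes given next are ones for which a smallest fold could be set. Record AF120471 (mMO036358) was found on all villin-TLR4 arrays and on 0 of the WT littermates, at 7.22 and 9.08 against 6.30, 6.24 and 6.48. Its level in villin-TLR4 was at least 2.07-fold higher, the WT littermate side being set per array at the higher of the probe's own signal and the lowest signal well above background. Record AF304550 (mMO036335) was at least 1.05-fold higher in villin-TLR4 and a probe of 1600012H06Rik (mMO035445) at least 1.05-fold higher in WT littermates. Each met the rule only through the genotype in which it was higher, so the rule set these directions and they support nothing.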

How the data were processed

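Colon RNA was amplified to cRNA carrying biotin, which a streptavidin dye made visible, per the labels' protocols. The authors deposited scanner output, 1 file per array, with foreground and background intensity at 635 nm for 38880 spots, read on a GenePix 4000B with GenePix Pro 4.1.1.4, per the file headers, and not normalised. A flag score per spot (0 found, -50 not found, -100 bad) was deposited with them, per the file headers. A deposited value table of 15308 probes holds a relative value, a ratio-like number whose scale, centring and direction are not stated, and lists 0 mMO probes.

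The median foreground intensity of all spots was corrected with normexp at an offset of 50 (limma 3.58.1, R 4.3.3). Bad spots were set to missing, 3802 control spots were left out, and log2 values of 35078 gene probes were quantile normalised. Probes found on at least 2 arrays (19121) were fitted singly by lmFit with eBayes in a two-sided test, adjusted over all of them by Benjamini-Hochberg at a threshold of 0.05. Symbols came from unversioned RefSeq accessions in a gene table of assembly GRCm38.p6, which matched 23017 gene probes. The number of arrays (2 and 3) limits the precision.

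Members named in the text were those with an adjusted p under 0.05 (0), the 6 brightest and 3 dimmest, the 6 largest non-overlapping differences in each direction, the 5 largest SDs over arrays, and the 10 brightest with a symbol, with other found probes of each symbol. The members with the smallest p, those on a single array, those with differences below -1, Nr1d1, V00807, the members found in 1 genotype only and the groups by name and record prefix were chosen after their values were seen. The members and lists were chosen with earlier results of these data known. The code was tested on simulated data.

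Marker lists were read as summed intensity per array. Goblet cell markers (3 of 5 measured) had a median difference of 0.20, smooth muscle (5 of 5) of 0.34, T cell (3 of 4) of -0.18 and macrophage (2 of 4) of -0.33. Colon epithelium (8 of 8) gave -0.09, neutrophil (5 of 6) -0.39, exocrine pancreas (5 of 7) -3.20 and erythroid markers (2 of 3) 1.83. Alternatives were other background corrections, scalings, filters, covariates and blocks, array weights, 1 probe per gene symbol, a threshold of 0.10, the deposited value table and leaving out each array.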

Additional observations from a re-analysis of the deposited data

How the results depend on the processing

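No probe passed an adjusted limma p of 0.05, and 0 also passed at a threshold of 0.10, without each array in turn (0 to 0) and in the authors' value table, which holds no member. Array weights called 25 probes and 4 members, and scan day as a block 68 and 27; the cause was not tested. Replicate numbers were not treated as pairs. The r of deviations between same-numbered samples was -0.15 and -0.21. The 2 villin-TLR4 arrays deviate from their mean as mirror images, so these r cannot decide whether the samples are paired. The replicate block called 34 probes and 6 members, with 1 residual degree of freedom where all 5 arrays had a value. The called mMO036168 lacked 1 array and had no residual spread of its own. Members with an unadjusted p under 0.05 numbered 151 with scan day as a block (150 GenBank-named, 2.20% of all probes) and 55 with sex as a covariate (55, 1.51%), and 54 to 114 without an array (54 to 112). Without a WT littermate array, 4.51% to 10.9% of all probes had such a p, against 4.64% with all 5 arrays. The 10.9% was without replicate 1, where 110 members had one (100 GenBank-named). The counts without an array therefore cannot be compared without these shares. The GenBank-named median difference was 2.06 with scan day and 0.41 with no filter, which adds probes near background. It was 0.68 to 1.51 without an array, and positive under every alternative run. Non-overlapping GenBank-named members with villin-TLR4 higher numbered 104 to 175 without an array, beside 20.1% to 25.3% of all probes. That share was 13.0% with all 5 arrays, so the rise goes with having fewer arrays to compare. RefSeq-named medians moved to -0.089 with scan day, and were -0.062 to 0.013 without an array. Unnamed medians were -0.072 with plain subtraction and when found on all 5 arrays, -0.066 with cyclic loess and the foreground mean, -0.071 with the replicate block, -0.068 with sex, -0.058 with array weights, -0.025 with scan day, -0.014 with no filter, -0.28 with 75th percentile scaling, and -0.086 to -0.026 without an array. Brightness, here the mean over arrays of each array's median member level, was 9.92 for members found on all 5 arrays (9.001 for all members) and 8.84 to 9.33 without an array. The detection gap lay between -7.69 and -5.63 points without an array. It was -4.45 points when found meant a foreground over background plus 2 background SD, with an exact sign-flip permutation p of 0.125. At that p the class was not lower on every array, so this part depends on how detection was called. Of 562 recomputed differences of 30 named probes 529 kept direction and call. Reversed were mMO036274 (-2.27 with sex, -2.25 to 4.0998 without an array), mMO035471 (-0.15 with array weights, -0.030 with scan day, -0.20 to 1.04), mMO035542 (0.041 and 0.13 with the same, -0.15 to 0.077), mMO035834 (0.016 with the replicate block, 0.059 with sex, -0.37 to 0.065), mMO035882 (-0.13 with scan day, 0.10 to 0.42) and mMO035953 (0.015 with the foreground mean, 0.20 with array weights, 0.070 with scan day, 0.0059 with sex, -0.14 to 0.16); the cause was not tested.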

Other observations

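Among 14074 named probes outside the GenBank-named group, the 10 whose deviations over the 5 arrays lay nearest to the median profile of the GenBank-named members were probes of Herpud1, D17H6S56E-5, Ugt1a6b (2 probes), Gpr20, Kctd12, Lacc1, Azgp1, Fut8 and Pdia5, at root mean square distances of 0.16 to 0.22 on the log2 scale. Herpud1, the nearest, read 11.82 and 12.83 in villin-TLR4 and 10.72, 10.87 and 11.57 in WT littermates, with a limma adjusted p of 0.883. The measure was chosen after the values were seen, and no shared function or control is implied.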
